A study of Zea mays with 10 samples.

Results

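The embryo surrounding region (ESR) genes described here are ESR1 (Zm00001d027820), ESR2 (Zm00001d027819), ESR6 (Zm00001d053112), MEG14 (Zm00001d019033) and the unnamed gene Zm00001d038758, 5 of the 45953 genes in the count tables. ESR1, ESR2 and ESR6 were taken as the established markers of the ESR, and MEG14 and Zm00001d038758 as the genes probed in situ to place an ESR cell cluster. They were chosen by name, not by their counts in these libraries, but with earlier results of these data known. MEG14 and Zm00001d038758 were representative genes of that cluster in the study's own single cells. All 5 had counts in each of the 10 libraries, between 186 and 18739 in a library, and all 5 passed the filter on low counts in both comparisons. Bulk RNA was sequenced from wild-type endosperm of the maize inbred line B73, which the study reports growing in Beijing in summer. The replicated comparison held 3 libraries at 7 days after pollination (DAP) and 3 at 6 DAP, each from pooled endosperms, with kernels of independent ears as replicates. The protoplast experiment held 1 library each of protoplasts and of undigested endosperm at 7 DAP, and 1 of each at 6 DAP. Protoplasts are cells freed from their walls, here with cellulase, macerozyme and pectolyase.

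No group carried a mutation or transgene, and the stages and the digestion were the only labelled differences. The labels and the methods name different library kits, and the labels also mention endosperm of a later stage in the pooling step. The replicated libraries held 15911047 to 24311056 counts on genes, and those of the protoplast experiment 22234742 to 30203337. Markers of the aleurone layer, the basal endosperm transfer layer (BETL), the starchy endosperm, the endosperm adjacent to scutellum (EAS) and the embryo all had counts in every library, with 0 marker genes at 0. The embryo markers OLE1, OLE3, GLB1 and OBAP1A, which code for oil body and storage proteins, summed to between 566 and 593 CPM (counts per 1000000 counts of the library) at 7 DAP and between 62.2 and 69.3 CPM at 6 DAP in the replicated libraries. In such bulk samples, fewer cells of a type and less RNA per cell cannot be told apart.

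The ESR is the endosperm domain that lines the cavity around the young embryo. ESR1 and ESR2, with their neighbour ESR3 (Zm00001d027821), encode small secreted proteins of the CLE family, which is named after CLAVATA3 and these maize proteins and holds many peptide ligands of plant cell signalling. ESR6 encodes a small cysteine-rich protein of the defensin type, and MEG14 belongs to the MEG family of small cysteine-rich proteins, whose best known member MEG1 is a maternally expressed gene of the BETL. No name or role was available for Zm00001d038758.

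Which transcripts the in situ probes of MEG14 and of the unnamed gene match was not examined, and the primers listed for them are shown. Each is written 5′ to 3′ without the promoter tag that the reverse primers share, with the first 3 bases in capitals.
MEG14 forward: AGAagcacacaaagcgcgt
MEG14 reverse: CTAattcgtgtttaggggcag
Zm00001d038758 forward: ATGgagacttcacggaggagc
Zm00001d038758 reverse: CTAgcatgagaggcagaagca
The forward primer of Zm00001d038758 opens with the letters of a start codon, and both reverse primers open with CTA, which is a stop codon when read on the opposite strand. Whether these letters are in frame was not examined, since no genome of the files' build was used here.

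The 3 CLE genes carry consecutive identifiers in the files. In the RefSeq gene table of a later B73 assembly (Zm-B73-REFERENCE-NAM-5.0), 3 protein-coding genes bear ESR names, all on chromosome 1, with 1 pseudogene listed between them. That table gives the names ESR1 and ESR2 to overlapping sets of entries, so neither could be matched to it. Because only uniquely mapped reads were counted, which leaves out what near-identical copies share, the split of reads among ESR1, ESR2 and ESR3, and among MEG genes, is uncertain.

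**Figure D1:**
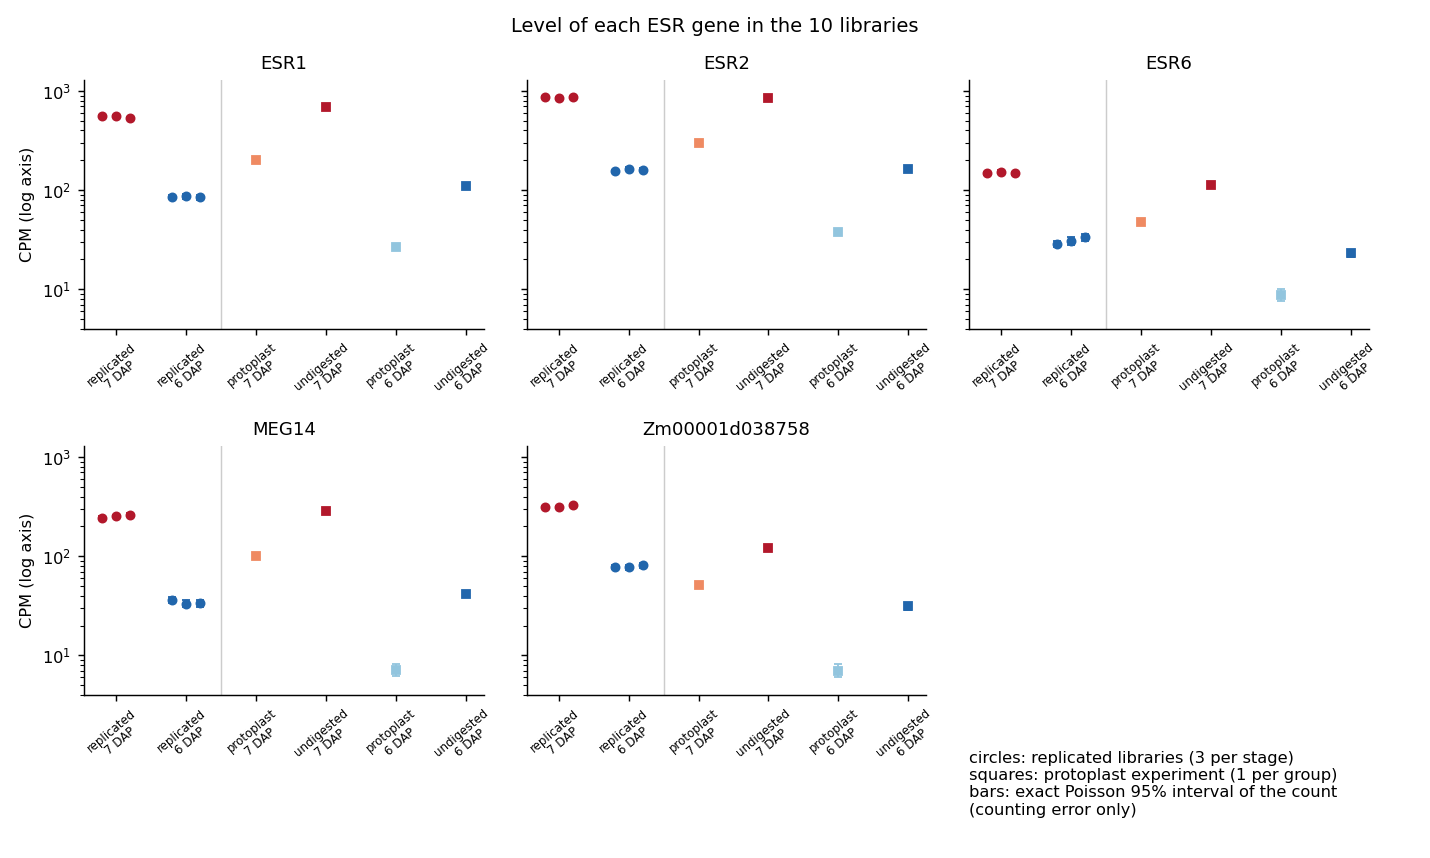
CPM (log axis) of the 5 ESR genes in the 10 libraries, with circles for the 3 replicated libraries of a stage, squares for the 1 library of each group in the protoplast experiment, and bars for the exact Poisson 95% interval of the count, which covers counting error only. The 7 DAP libraries lie above the 6 DAP libraries of the same kind for each gene, and protoplasts lie below undigested endosperm at both stages.

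ESR1 had 563, 560.1 and 538 CPM in the 3 replicated libraries of 7 DAP, against 85.6, 86.5 and 84.4 CPM in those of 6 DAP. Every 7 DAP library was far above every 6 DAP library. After TMM normalization (edgeR's trimmed mean of M values), ESR1 averaged 532 ± 13.0 CPM at 7 DAP and 89.1 ± 0.682 CPM at 6 DAP (SD, n = 3 each). The fitted ratio was 5.98-fold, a log2 fold change of 2.58 (SE 0.03, adjusted p = 1.47e-24 by edgeR's quasi-likelihood test).

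ESR2, the CLE gene next to ESR1, had 869, 860.3 and 868 CPM at 7 DAP, against 156, 165 and 161 CPM at 6 DAP. Its replicates were close at both stages and did not overlap. The TMM-normalized mean was 833 ± 3.67 CPM at 7 DAP and 168 ± 4.69 CPM at 6 DAP (SD, n = 3 each), and the fitted log2 fold change was 2.31 (SE 0.02, adjusted p = 1.04e-24 by edgeR's quasi-likelihood test). The remaining gene of the trio, ESR3, had 261, 256 and 254 CPM at 7 DAP, against 58.5, 57.5 and 54.6 CPM at 6 DAP. It rose as well, by 2.06 on the log2 scale (SE 0.03, adjusted p = 2.06e-21 by the same test). CLE29 (Zm00001d036515), another CLE gene named in the study's tables, had 2 counts in 1 replicated library of 7 DAP, 1 count in undigested endosperm of 6 DAP and 0 in the other 8 libraries, and was not tested.

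ESR6 gave 148, 153 and 149 CPM in the 7 DAP libraries, against 28.7, 30.7 and 33.5 CPM in the 6 DAP libraries. The 6 DAP replicates of this defensin gene were the most spread of the 5 genes in proportion to their mean, yet stayed well below 7 DAP. TMM-normalized means were 144 ± 2.88 CPM at 7 DAP and 32.3 ± 2.69 CPM at 6 DAP (SD, n = 3 each), with a log2 fold change of 2.16 (SE 0.05, adjusted p = 4.60e-19 by edgeR's quasi-likelihood test).

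MEG14 had 246, 254 and 263 CPM at 7 DAP, against 36.0, 33.2 and 33.6 CPM at 6 DAP. Its rise was the largest of the 5 genes in this fit. The TMM-normalized level was 244 ± 8.27 CPM at 7 DAP and 35.7 ± 1.45 CPM at 6 DAP (SD, n = 3 each), a fitted ratio of 6.83-fold and a log2 fold change of 2.77 (SE 0.04, adjusted p = 2.34e-22 by edgeR's quasi-likelihood test).

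Zm00001d038758 had 313, 311 and 326 CPM at 7 DAP, against 78.0, 77.6 and 80.9 CPM at 6 DAP. It rose least of the 5 genes, with TMM-normalized means of 305 ± 7.48 CPM at 7 DAP and 82.1 ± 2.33 CPM at 6 DAP (SD, n = 3 each). The fitted ratio was 3.71-fold, a log2 fold change of 1.89 (SE 0.03, adjusted p = 3.68e-21 by edgeR's quasi-likelihood test).

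All 5 genes thus passed the test in the direction of 7 DAP, where 28.2% of the 21486 genes tested did. With the further limit of a log2 fold change over 2, which the study's methods set, ESR1, ESR2, ESR6 and MEG14 were called, against 2.54% of the genes tested, and Zm00001d038758 fell short. Over all genes tested, 6067 rose and 6025 fell, and with scaling by library totals 8360 rose and 4158 fell. The stages did not overlap for any of the 5 genes, which held for 61.8% of the genes tested. The median log2 fold change was 2.31 over the 5 genes and 0.02 over all genes tested. Ranked by log2 fold change, MEG14 stood at 275, ESR1 at 320, ESR2 at 417, ESR6 at 468 and Zm00001d038758 at 599. Taken singly, each gene's 3 against 3 values gave p = 0.1 in a two-sided exact permutation test, the smallest p that such groups allow.

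Together the 5 genes took 0.214% of all counts in each of the 3 replicated libraries of 7 DAP, against 0.0385%, 0.0393% and 0.0394% in those of 6 DAP. The embryo markers moved with them in all libraries of this comparison: 4 of 4 rose, and their median log2 fold change was 3.27. Summed EAS markers stood between 94.0 and 95.5 CPM at 7 DAP and between 31.1 and 32.6 CPM at 6 DAP, and 3 of 3 rose. BETL markers went the other way, with sums between 1257 and 1286 CPM at 7 DAP and between 3201 and 3449 CPM at 6 DAP, and 6 of 6 fell. Of the starchy endosperm markers 4 of 5 rose and 1 fell, with a median log2 fold change of 2.01. Aleurone markers rose in 3 of 3 cases, with a median of 0.62. Over all genes tested, 28.2% rose and 28.0% fell. The part of these other cell types in the change of the ESR genes was not tested.

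**Figure D2:**
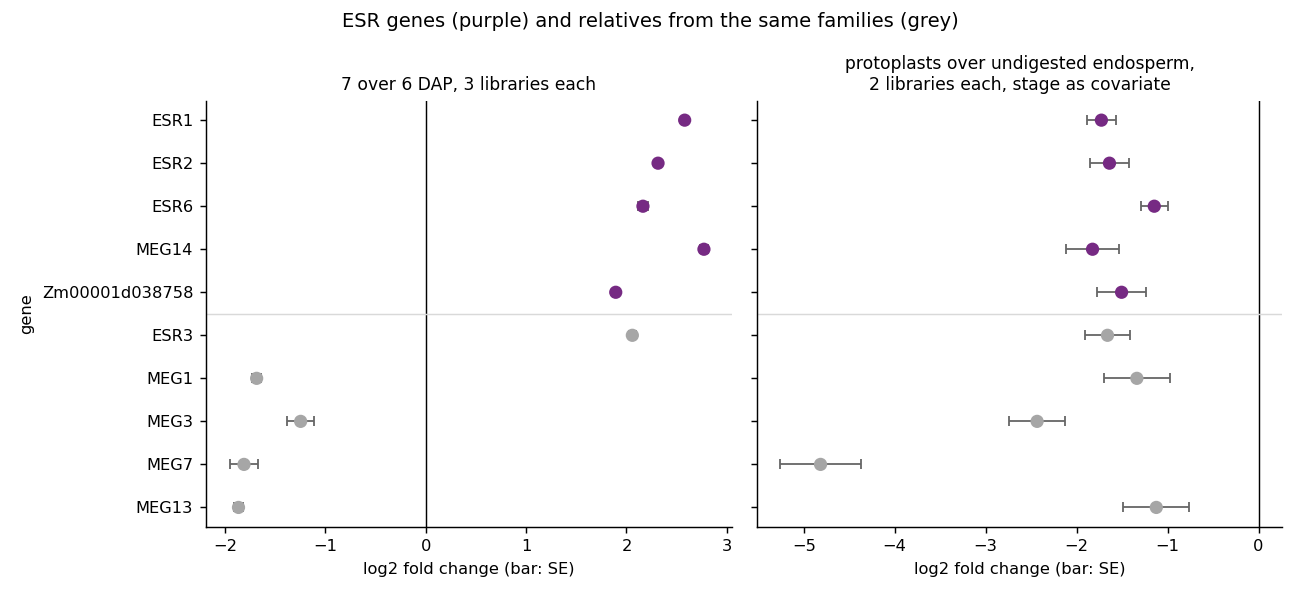
Log2 fold change with its standard error for the 5 ESR genes (purple) and 5 relatives from the CLE and MEG families (grey), at left for 7 over 6 DAP with 3 libraries each and at right for protoplasts over undigested endosperm with stage as a covariate. At left MEG14 lies at 2.77 while the other 4 MEG genes lie between -1.87 and -1.25, and at right all 10 genes lie below 0.

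MEG14 rose while the other 4 MEG genes named in the study's tables, MEG1 (Zm00001d019030), MEG3 (Zm00001d019027), MEG7 (Zm00001d019029) and MEG13 (Zm00001d019019), fell, as did 28.0% of the genes tested. MEG1, the best known of them, averaged 51.8 ± 0.668 TMM-normalized CPM at 7 DAP and 167 ± 11.9 CPM at 6 DAP (SD, n = 3 each). The fitted values, shown beside the ESR genes in the plot of log2 fold changes, ran between -1.87 for MEG13 and -1.25 for MEG3, with adjusted p of at most 9.03e-08 by edgeR's quasi-likelihood test.

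The 5 genes did not all change by the same factor. The log2 ratio of the counts of 2 genes within a library does not depend on the scaling of that library, and for all 10 pairs of ESR genes the 3 ratios of 7 DAP did not overlap the 3 ratios of 6 DAP. Among pairs of genes that rose and had counts in every replicated library, 55.2% did not overlap either. Each pair gave p = 0.1 in a two-sided exact permutation test, the smallest p possible, and 0.1 after Benjamini-Hochberg adjustment over the 10 pairs.

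MEG14 gained most on Zm00001d038758. Their log2 ratio was -0.35, -0.30 and -0.31 in the 7 DAP libraries, against -1.12, -1.23 and -1.27 in the 6 DAP libraries, a difference of 0.88 between the means. ESR1 also gained on Zm00001d038758, by 0.69, and ESR2 by 0.42. ESR6 lost ground to MEG14, with a mean log2 ratio of -0.76 ± 0.05 at 7 DAP and -0.15 ± 0.16 at 6 DAP (SD, n = 3 each).

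The balance within the CLE trio shifted too. ESR1 made up 33.2%, 33.4% and 32.4% of the trio's counts at 7 DAP, against 28.5%, 28.0% and 28.1% at 6 DAP. The exact Clopper-Pearson 95% intervals of these shares, which cover counting error only, reached down to 31.9% at 7 DAP and up to 29.5% at 6 DAP. ESR2 held 51.3%, 51.3% and 52.3% of the trio's counts at 7 DAP, against 52.1%, 53.4% and 53.7% at 6 DAP, ranges that came close and overlapped. ESR3 held between 15.3% and 15.4% at 7 DAP and between 18.2% and 19.5% at 6 DAP.

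**Figure D3:**
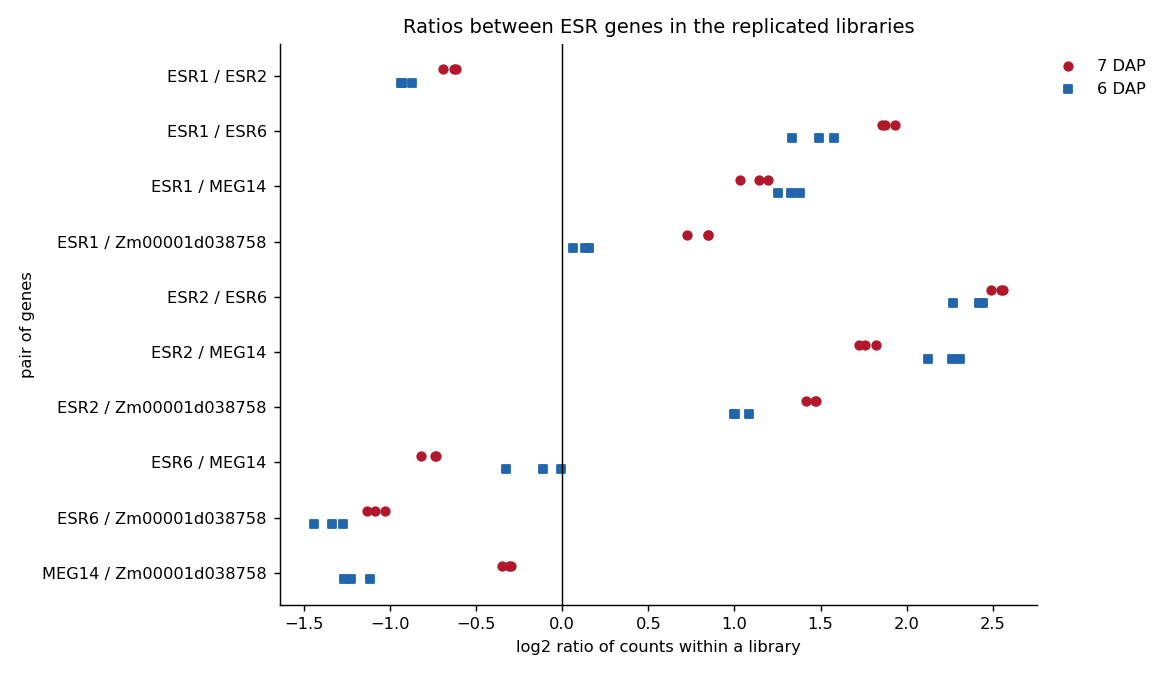
Log2 ratio of counts within a library for the 10 pairs of ESR genes, with 3 circles for the replicated libraries of 7 DAP above 3 squares for those of 6 DAP. The stages do not overlap for any pair, and the widest gap is that of MEG14 to Zm00001d038758, at about -0.32 for 7 DAP and -1.20 for 6 DAP.

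The protoplast experiment asked how wall digestion changed the transcripts measured, since protoplasts were the input for single cells. ESR1 had 203 CPM in protoplasts and 691 CPM in undigested endosperm at 7 DAP. At 6 DAP it had 26.7 CPM in protoplasts and 109 CPM in undigested endosperm. Protoplasts were the lower library at both stages.

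ESR2 showed 300.1 CPM in protoplasts, against 843 CPM in undigested endosperm at 7 DAP, and 37.4 CPM in protoplasts, against 164 CPM in undigested endosperm at 6 DAP. ESR6 had 47.8 CPM in protoplasts and 113 CPM in undigested endosperm at 7 DAP, and 8.78 CPM in protoplasts and 23.1 CPM in undigested endosperm at 6 DAP. Both were again lower in protoplasts at each stage.

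MEG14 gave 102 CPM in protoplasts, against 288 CPM in undigested endosperm at 7 DAP, and 7.12 CPM in protoplasts, against 41.7 CPM in undigested endosperm at 6 DAP. Zm00001d038758 had 50.9 CPM in protoplasts and 121 CPM in undigested endosperm at 7 DAP, and 7.01 CPM in protoplasts and 31.2 CPM in undigested endosperm at 6 DAP. Both were thus at their lowest in protoplasts of 6 DAP, with 189 and 186 counts.

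With stage as a covariate, all 5 genes fell in protoplasts, where 16.3% of the 22799 genes tested fell. The log2 fold change was -1.73 for ESR1 (SE 0.16, adjusted p = 0.00199 by edgeR's quasi-likelihood test), -1.64 for ESR2, -1.15 for ESR6, -1.83 for MEG14 and -1.51 for Zm00001d038758, with a median of -1.64 over the 5 genes and -0.03 over all genes tested. ESR6 thus had the smallest change. The adjusted p was at most 0.0130 by the same test. Over all genes tested 5255 rose and 3725 fell, and with scaling by library totals 4651 rose and 5433 fell, while the 5 ESR genes fell under both. In this fit the stages stand in as replicates. Without the stage covariate, when the stage difference counts as spread, 0 of the 5 genes passed. Their adjusted p then lay between 0.305 and 0.427 by the same test. Over all genes tested, 2619 fell and 4719 rose without the covariate, against 3725 and 5255 with it. With the covariate ESR3 also fell, by 1.66. Of the other 4 MEG genes MEG1, MEG3 and MEG7 fell, while MEG13 had -1.12 (adjusted p = 0.0632 by the same test). Without the covariate MEG3 and MEG7 still passed, while ESR3 (adjusted p = 0.373) and MEG1 (adjusted p = 0.0743) did not.

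**Figure D4:**
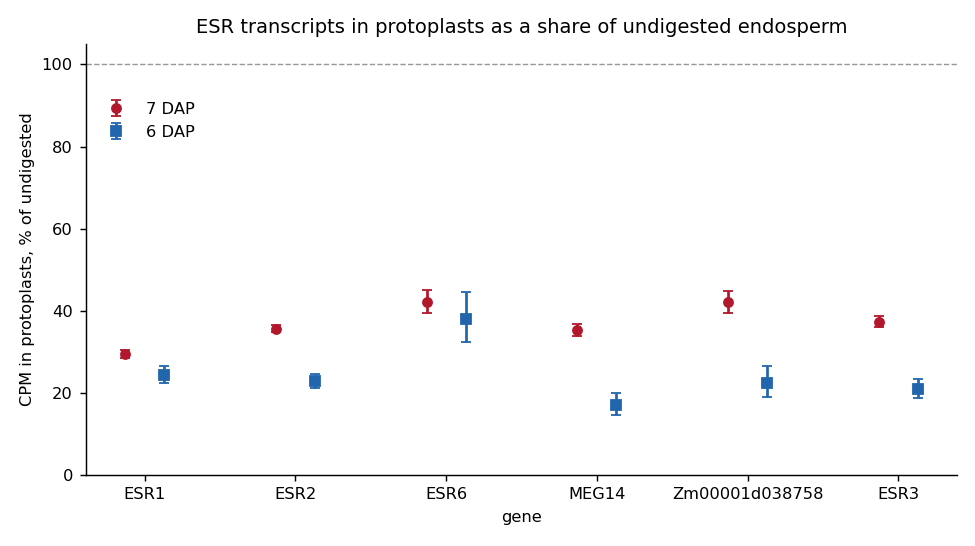
CPM in protoplasts as a percentage of CPM in undigested endosperm for the 5 ESR genes and ESR3, with circles for 7 DAP and squares for 6 DAP, 1 library of each kind, and bars for exact 95% intervals from the counts. Every point lies below 50%, with the undigested level as a dashed line at 100%, and the 7 DAP point is the higher of each pair, with overlapping intervals for ESR6.

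The share of the undigested level left in protoplasts was higher at 7 than at 6 DAP for each of the 5 genes. For MEG14 it was 35.3% at 7 DAP (exact 95% interval 33.8% to 36.8%, counting error only) and 17.1% at 6 DAP (14.5% to 20.0%). For Zm00001d038758 it was 42.1% at 7 DAP (39.5% to 44.9%) and 22.4% at 6 DAP (19.0% to 26.4%). ESR2 kept 35.6% at 7 DAP and 22.8% at 6 DAP, and ESR1 29.4% at 7 DAP and 24.4% at 6 DAP. ESR6 kept 42.1% at 7 DAP (39.5% to 45.0%) and 38.1% at 6 DAP (32.5% to 44.5%), a difference within counting error. On the scale of log2(CPM + 1), the protoplast change was less negative or more positive at 7 than at 6 DAP for 39.8% of the genes tested. With 1 library per stage and treatment, the difference between the stages could not be tested.

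At both stages all 5 genes were lower in protoplasts by more than 1 on the scale of log2(CPM + 1), as were 5.66% of the genes tested. Markers of other cell types moved alongside in ways that depended on the stage. Summed EAS markers stood at 11.1 CPM in protoplasts and 96.5 CPM in undigested endosperm at 7 DAP, and at 11.6 CPM in protoplasts and 34.0 CPM in undigested endosperm at 6 DAP. The embryo markers summed to 211 CPM in protoplasts and 480.2 CPM in undigested endosperm at 7 DAP, but to 79.2 CPM in protoplasts and 55.6 CPM in undigested endosperm at 6 DAP. BETL markers summed to 1365 CPM in protoplasts and 1144 CPM in undigested endosperm at 7 DAP, and to 1123 CPM in protoplasts and 3107 CPM in undigested endosperm at 6 DAP. Starchy endosperm and aleurone markers were lower in protoplasts at both stages. The part of these shifts in the values of the ESR genes was not tested.

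The same 4 libraries, read by stage, showed higher levels at 7 than at 6 DAP in both preparations. In protoplasts the ratio of 7 over 6 DAP was 7.62-fold for ESR1, 8.02-fold for ESR2, 5.44-fold for ESR6, 14.3-fold for MEG14 and 7.26-fold for Zm00001d038758. In undigested endosperm it was 6.33-fold for ESR1, 5.14-fold for ESR2, 4.92-fold for ESR6, 6.91-fold for MEG14 and 3.87-fold for Zm00001d038758. The widest contrast was that of MEG14, with exact 95% intervals of 12.3 to 16.6 in protoplasts and 6.46 to 7.40 in undigested endosperm. All 5 genes were higher at 7 DAP by more than 1 on the scale of log2(CPM + 1) in both preparations, as were 0.658% of the genes tested.

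Zm00001d038758 was the gene whose level differed most between the experiments. In undigested endosperm it reached 0.381 of the mean CPM of the replicated libraries at 7 DAP and 0.396 at 6 DAP. The other 4 genes lay between 0.745 and 1.28 of that mean. Of 13107 genes with a mean of at least 10 CPM in the replicated libraries, 0.771% were under 0.5 of it at both stages. Experiment and library preparation cannot be told apart here, since the 4 undigested and protoplast libraries came from the separate protoplast experiment.

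The order of the levels over the groups followed from these values. ESR1, ESR2, ESR6 and MEG14 ran in the same order of blocks, with both kinds of intact endosperm at 7 DAP highest, protoplasts of 7 DAP next, both kinds of intact endosperm at 6 DAP below and protoplasts of 6 DAP lowest. Within the 7 DAP block, undigested endosperm had the higher CPM for ESR1 and MEG14, and the replicated libraries had it for ESR2 and ESR6. For Zm00001d038758 the order was the replicated libraries of 7 DAP, undigested endosperm of 7 DAP, the replicated libraries of 6 DAP, protoplasts of 7 DAP, undigested endosperm of 6 DAP and protoplasts of 6 DAP. The only neighbours closer than the spread of the replicates were undigested endosperm and the replicated libraries of 6 DAP for ESR2, at 164 CPM and 156 to 165 CPM.

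The share of ESR1 within the CLE trio was read in the same 4 libraries, with intervals that cover counting error only. In protoplasts ESR1 made up 32.0% of the CLE trio's counts at 7 DAP (31.3% to 32.7%, exact 95% interval) and 33.8% at 6 DAP (31.7% to 35.8%), which overlap. In undigested endosperm it made up 36.6% at 7 DAP (36.2% to 37.1%) and 31.7% at 6 DAP (30.6% to 32.7%). With 1 library per stage and treatment, no difference between the preparations was tested.

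**Figure D5:**
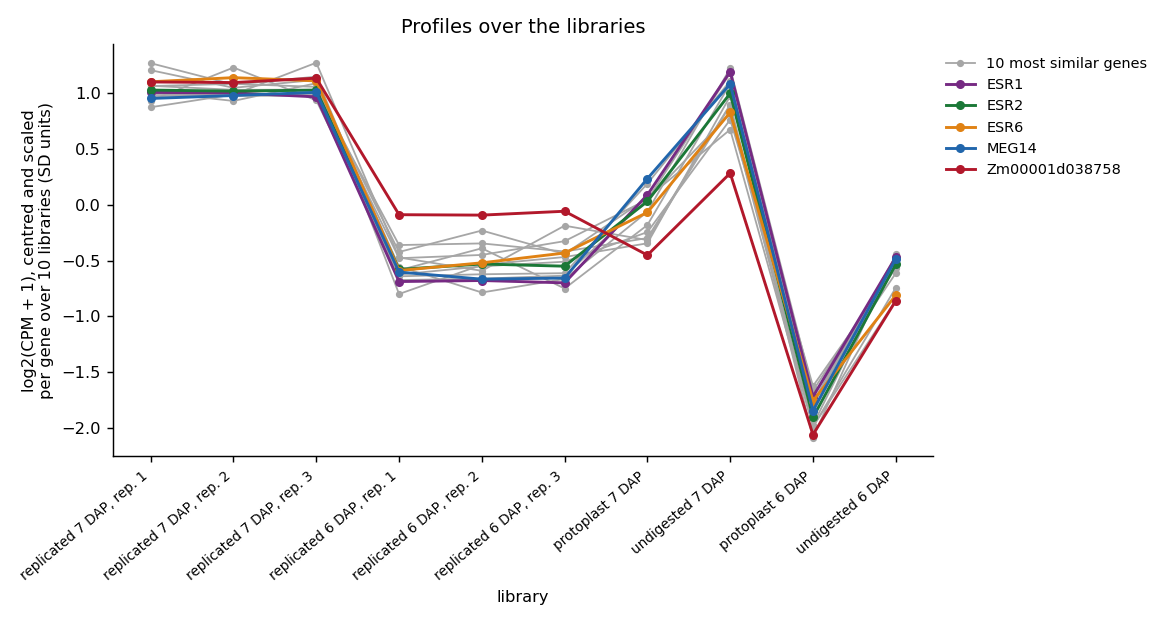
log2(CPM + 1) of the 5 ESR genes (colours) and of the 10 genes with the most similar profile (grey), centred and scaled for each gene over the 10 libraries, in SD units, with lines that only join the libraries of a gene. Zm00001d038758 lies above the other 4 ESR genes in the replicated libraries of 6 DAP and below them in all 4 libraries of the protoplast experiment.

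Over the 10 libraries, the 5 genes followed each other closely, with Zm00001d038758 the loosest. On log2(CPM + 1), Pearson's r was 0.996 between ESR1 and MEG14, 0.995 between ESR2 and MEG14 and 0.992 between ESR1 and ESR2, and lay between 0.858 and 0.938 for the pairs with Zm00001d038758. These are descriptions over 10 libraries that share 2 stages and 1 digestion, so any gene moved by both would score highly. The mean profile of the 5 genes was then set against the 13418 genes with a mean of at least 10 CPM, of which 82 had r over 0.95. Of these 82, ESR1, ESR2, ESR6 and MEG14 are part of that mean themselves, which leaves 78 other genes. The aleurone markers AL9, SBT1 and VPP7 had r of 0.976, 0.883 and 0.780 with that mean. The ESR gene Zm00001d038758 had 0.935.

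The gene outside the set most like it was Zm00001d019032, whose identifier precedes that of MEG14, with r = 0.996. It had 202, 193 and 194 CPM in the replicated libraries of 7 DAP, against 28.6, 29.7 and 34.9 CPM in those of 6 DAP. In protoplasts it had 56.1 CPM, against 148 CPM in undigested endosperm at 7 DAP, and 3.50 CPM, against 20.3 CPM at 6 DAP. No symbol for it was found in the parts of the study's supplement that were searched, which were not all of it, and no function is given here. Since the gene was chosen for its profile, no test is attached.

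Next came Zm00001d035367 (r = 0.991), Zm00001d011026 (0.990), Zm00001d048826 (0.989), Zm00001d045863 (0.988) and Zm00001d011017 (0.988). Zm00001d011026 and Zm00001d011017 were abundant, with 1441 and 1135 CPM in replicate 1 of 7 DAP, against 277 and 217 CPM in replicate 1 of 6 DAP. Zm00001d045863 is listed as an aspartic-type endopeptidase. A high r did not mean a change of similar size, since Zm00001d035367 had 61.0, 58.3 and 59.3 CPM at 7 DAP, against 38.5, 39.2 and 39.6 CPM at 6 DAP. The list ended with Zm00001d034700, Zm00001d013738, Zm00001d015132 and Zm00001d003205, with r between 0.983 and 0.987.

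Gene lists that the study tied to its ESR cell cluster were followed in the same 2 fits. They were drawn from single cells of the same kind of protoplasts at the same stages, so they are not independent of the ESR genes. In the cell killing list, DEF3 (Zm00001d018254), Zm00001d018253 and Zm00001d018251 all rose at 7 DAP, as did 28.2% of the genes tested, with log2 fold changes between 2.35 and 2.64. DEF3 averaged 550.3 ± 5.35 TMM-normalized CPM at 7 DAP and 108 ± 5.67 CPM at 6 DAP (SD, n = 3 each). In protoplasts, DEF3 fell by 1.73 on the log2 scale and Zm00001d018253 fell by 4.34, while Zm00001d018251 had -0.92 (adjusted p = 0.119 by edgeR's quasi-likelihood test). Without the stage covariate Zm00001d018253 still passed and DEF3 did not, with an adjusted p of 0.311 by the same test.

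Among 6 aspartic-type endopeptidases, 4 rose at 7 DAP and 2 fell, where 28.2% of the genes tested rose and 28.0% fell. The 2 that fell, Zm00001d015006 and Zm00001d054017, are also in the signal peptide processing list. Zm00001d045863 rose most, with a TMM-normalized mean of 309 ± 3.88 CPM at 7 DAP and 58.8 ± 2.49 CPM at 6 DAP (SD, n = 3 each), a log2 fold change of 2.39, while the other 3 that rose lay between 0.67 and 0.88. In protoplasts 3 of the 6 fell, where 16.3% of the genes tested fell. These were Zm00001d045863, by 2.44, Zm00001d004734, by 0.63, and Zm00001d009594, by 0.62. None of these 3 passed without the stage covariate, with adjusted p of 0.215 for Zm00001d045863, 0.122 for Zm00001d004734 and 0.158 for Zm00001d009594 by edgeR's quasi-likelihood test.

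The 8 signal peptide processing genes of that cluster by their annotation trim secreted proteins and include the 2 endopeptidases just named. All 8 fell slightly at 7 DAP, as did 28.0% of the genes tested, with log2 fold changes between -0.45 and -0.20. With scaling by library totals, the median of all genes was 0.13 rather than 0.02. Of the 8, 7 then fell, as did 4158 of the 21486 genes tested. In protoplasts Zm00001d006320 and Zm00001d037926 fell, as did 16.3% of the genes tested. The other 6 lay between -0.41 and 0.20 and did not pass the test. Without the stage covariate Zm00001d037926 did not pass either, with an adjusted p of 0.0851 by edgeR's quasi-likelihood test. Of the transcription factors whose regulons were most specific to the cluster, NACTF65 (Zm00001d025861) and THX35 (Zm00001d001894) rose at 7 DAP, by 1.74 and 0.62, NACTF61 (Zm00001d024543) fell by 0.34, and ARFTF7 (Zm00001d039267) and ARFTF27 (Zm00001d045026) did not pass the test, with log2 fold changes of 0.12 and 0.11. Of the genes tested, 28.2% rose and 28.0% fell. With scaling by library totals, 4 of these 5 factors rose and 1 fell, where 8360 of the 21486 genes tested rose and 4158 fell. NACTF65 was scarce, at 2.67 ± 0.169 TMM-normalized CPM at 7 DAP and 0.764 ± 0.281 CPM at 6 DAP (SD, n = 3 each). In protoplasts NACTF61 and ARFTF27 rose by 1.73 and 0.75, as did 23.0% of the genes tested, while THX35 and ARFTF7 fell by 2.25 and 2.00, and NACTF65 did not pass the filter on low counts. These 4 factors passed without the stage covariate too.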

How the data were processed

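The authors used Trimmomatic 0.39 for trimming, STAR for alignment to the B73 genome and featureCounts 2.0.1 to count the reads that mapped uniquely to a gene. The deposited values are raw counts per gene, not normalized, for 45953 genes in 10 libraries. Members and gene lists were chosen with earlier results of these data known. Named genes are the 5 members, their named CLE and MEG relatives, the lists tied to the ESR cluster and the 10 genes with the highest Pearson r to the mean member profile.

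Counts were tested with edgeR 4.0.16 in R 4.3.3 (filterByExpr, TMM, quasi-likelihood F test, Benjamini-Hochberg over all genes tested, adjusted p under 0.05). The stage fit used the 6 replicated libraries. The protoplast fit used the other 4, with stage as covariate. Per-library levels are CPM on library totals. Differences between single libraries are on log2(CPM + 1), which understates changes of low genes, and their 95% intervals are exact and cover counting error only. Differing totals between libraries limit low counts most. Exact permutation tests were run in scipy 1.17.1, and the fits were also run on simulated data. The simulated protoplast experiment held no stage effect, so it does not check the use of the stages as replicates. DESeq2 1.42.0, RLE, library totals, other filters, the replicate block, leaving out each library and a pseudocount of 0.1 were alternatives. Identifiers matched the RefSeq table in 0 cases, so names come from the supplementary tables.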

Additional observations from a re-analysis of the deposited data

Results flagged for a closer look

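The following values had opposite signs in the 2 preparations or at the 2 stages of the protoplast experiment. With a lone library for each stage and treatment, these differences were not tested.

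The log2 ratio of ESR1 to ESR2 counts changed by -0.07 between 7 and 6 DAP in protoplasts and by 0.30 in undigested endosperm. That of ESR6 to Zm00001d038758 changed by -0.42 in protoplasts and by 0.35 in undigested endosperm.

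Of the genes tied to the ESR cluster, the aspartic-type endopeptidase Zm00001d008750 differed between protoplasts and undigested endosperm by 0.76 on the scale of log2(CPM + 1) at 7 DAP and by -0.66 at 6 DAP. The signal peptide processing gene Zm00001d015006 differed by 0.12 at 7 DAP and -0.24 at 6 DAP, and Zm00001d013642 by 0.21 at 7 DAP and -0.14 at 6 DAP. Between 7 and 6 DAP, Zm00001d013642 changed by 0.20 in protoplasts and -0.15 in undigested endosperm. The transcription factor THX35 changed by -0.11 in protoplasts and 0.53 in undigested endosperm, and ARFTF7 by -0.25 in protoplasts and 0.04 in undigested endosperm. For these factors the opposite signs were within counting error. In protoplasts the exact interval of the ratio of 7 over 6 DAP was 0.565 to 1.37 for THX35 and 0.629 to 1.05 for ARFTF7. In undigested endosperm it was 1.23 to 1.87 for THX35 and 0.902 to 1.18 for ARFTF7. All but that of THX35 in undigested endosperm include no change.

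Among the other cell types, summed BETL markers changed between 7 and 6 DAP by 0.28 on the log2 scale in protoplasts and by -1.44 in undigested endosperm, and differed between protoplasts and undigested endosperm by 0.25 at 7 DAP and -1.47 at 6 DAP. Summed starchy endosperm markers changed by -0.20 in protoplasts and 0.55 in undigested endosperm. Summed EAS markers changed by -0.07 in protoplasts and 1.48 in undigested endosperm. Summed embryo markers differed between protoplasts and undigested endosperm by -1.18 at 7 DAP and 0.50 at 6 DAP.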

How the results depend on the processing

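The rise of the 5 genes at 7 DAP was called under every alternative run. With each of the 6 libraries left out in turn, 5 of 5 genes were called and 4 passed a log2 fold change of 2. Over all alternatives the log2 fold change lay between 2.57 and 2.70 for ESR1, 2.29 and 2.43 for ESR2, 2.10 and 2.28 for ESR6, 2.75 and 2.89 for MEG14, and 1.88 and 2.01 for Zm00001d038758, which passed the limit of 2 with library totals alone. The 10 pairs of ratios did not overlap with any library left out. The fall in protoplasts was called in 5 of 5 genes under the other normalizations, filter and tool. Without the stage covariate it was called in 0 of 5, where 2619 of the 22799 genes tested fell. The log2 fold changes were then -1.60 for ESR1, -1.38 for ESR2, -1.07 for ESR6, -1.40 for MEG14 and -1.19 for Zm00001d038758. With TMM scaling the median change of the 5 genes was 2.28 rather than 2.35 between 7 and 6 DAP in undigested endosperm, and -1.27 rather than -1.49 between protoplasts and undigested endosperm at 7 DAP. Of the 10 genes most like the 5, 2 were shared with the list from the 6 replicated libraries alone and 9 with the list at a mean CPM of at least 1. The counts gave no sign that the replicate numbers pair the libraries. Same-numbered libraries of the 2 stages deviated together with r between -0.002 and 0.069, and 3 of 6 libraries matched best with their own number. Such values cannot exclude a pairing, and the methods do not say whether a number marks the same ear at both stages. With the replicate block, 5 of 5 genes were called and 4 passed the limit of 2. At 186 counts, the lowest of any ESR gene, counting error alone is wider than in the replicated libraries.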
